A study of Dorcoceras hygrometricum with 9 samples.

Results

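The gene set described here is the starch and trehalose metabolism of leaves of the resurrection plant Boea hygrometrica (Dorcoceras hygrometricum in the sample records), read out as transcript abundance. A gene belongs to it when the text of its best protein database match names starch, an amylase, a glucan dikinase, phosphorylase or branching enzyme, ADP-glucose, a disproportionating enzyme or trehalose. A minimum of 20 reads over all libraries was also asked for. Of 24182 genes with a read, 16347 had at least 20, and 36 of these matched. By role they are 5 genes of ADP-glucose pyrophosphorylase, 7 starch synthases, 4 branching enzymes, 2 isoamylases, 2 glucan, water dikinases, 3 beta-amylases, 2 alpha-amylases, 1 disproportionating enzyme, 8 trehalose-6-phosphate synthases and 2 trehalose-6-phosphate phosphatases. Every name is that of a best match in another species, so it stands for a family and not for a tested function in this plant.

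Starch is the carbon store of the chloroplast. ADP-glucose pyrophosphorylase makes the glucosyl donor, starch synthases lengthen the glucan chains, branching enzymes add side chains, and isoamylase trims them into a form that crystallises. Breakdown starts with dikinases that place phosphate on the granule surface, after which amylases release maltose and the disproportionating enzyme recycles short chains. Trehalose 6-phosphate, made by the synthase and cleared by the phosphatase, is in other plants a signal of sucrose supply more than a step to a bulk sugar, and it restrains the energy-sensing kinase SnRK1.

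Potted plants were sampled hydrated, after drying to 70% RWC and after drying to 10% RWC, where RWC is the relative water content, the water of a leaf as a share of what it holds when fully hydrated. No genotype, age or duration of drying is given in the sources used here. Each state has 3 RNA-seq libraries, called biological replicates by the submitters. The sources do not say whether each came from separate plants, so p-values measure the spread between these samples, which may be technical. Libraries held 6654601 to 7423965 uniquely aligned reads in the genes tested. In every state replicate 1 stood apart from replicates 2 and 3, with a chi-square per gene of 4.84 to 8.47 against either of them. Replicates 2 and 3 differed by 1.27 to 1.38, little more than counting noise alone would give. Whether replicates 2 and 3 are repeat libraries of 1 sample is not stated in the sources used here. Of leaf markers, the summed level of 7 chlorophyll a-b binding genes was 21190 to 27548 CPM (read counts relative to library size, scaled between libraries by TMM) in hydrated leaves, 2077 to 2585 CPM at 70% RWC and 633.3 to 762.9 CPM at 10% RWC. Over the same states 3 guard cell genes summed to 34.8 to 40.2, 14.4 to 15.9 and 6.66 to 8.51 CPM, and 10 cuticle genes of the epidermis to 724.9 to 828.5, 128.0 to 137.4 and 88.3 to 105.6 CPM. Of the cuticle genes, Bhs4608_002V1.1 alone had a mean of 478, 4.42 and 0.356 CPM in these states. Not all 10 fell: against hydrated leaves Bhs12030_001V1.1 was higher at 70% RWC (log2 fold change 0.94) and lower at 10% RWC (-1.33), and Bhs5545_002V1.1 was higher at 10% RWC (1.88). A single phloem gene had 3.41 to 7.54, 15 to 15.9 and 7.15 to 8.51 CPM. Root hair defective 3, the 1 gene found by the root words, had 220.1 to 223.8, 214.3 to 242.0 and 484.9 to 516.5 CPM. In such bulk samples fewer cells of a type and less RNA per cell cannot be told apart, and the part of these marker shifts in the results below was not tested.

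All 36 genes entered the test, with 116 to 194239 reads in total. They moved in both directions. Below, a bracketed value with ± is a log2 fold change with its standard error, CPM are given for replicates 1, 2 and 3 of a state, and a gene is called higher or lower at a Benjamini-Hochberg adjusted p under 0.05. At 70% RWC against hydrated leaves 17 were higher, 12 lower and 7 not called, by edgeR's quasi-likelihood test over all genes. Of all 14585 genes tested, 70.5% were called in that comparison, 34.6% higher and 35.9% lower, so a call by itself does not set the 36 genes apart. At 10% RWC against hydrated leaves 14 were higher, 17 lower and 5 not called, where 83.9% of all genes were called, 42.4% higher and 41.5% lower. Between the dried states, at 10% against 70% RWC, 9 were higher, 19 lower and 8 not called, beside 76.8% of all genes, 37.1% higher and 39.6% lower.

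Changes of at least 2-fold were called up for 8 genes and down for 6 at 70% RWC (15.1% and 20.5% of all genes) and up for 11 and down for 12 at 10% RWC (25.9% and 29.7%). In the last step, 10% against 70% RWC, 5 were at least 2-fold higher and 13 lower (18.6% and 25.0%). The median log2 fold change of the 36 genes was 0.20 at 70% RWC, -0.05 at 10% RWC and -0.17 for 10% against 70% RWC, where all genes had medians of -0.01, 0.01 and -0.05. The values of the 3 libraries did not overlap between the states compared for 29 of the 29 called genes at 70% RWC, 31 of 31 at 10% RWC and 27 of 28 between the dried states. How often this holds for called genes outside the set was not counted, so it does not set the 36 genes apart. Where libraries do not overlap, a difference must have the same sign in replicate 1 alone and in replicates 2 and 3 alone. The called difference with overlapping libraries, that of Bhs568_002V1.1 between the dried states, also had the same sign in both.

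**Figure D1:**
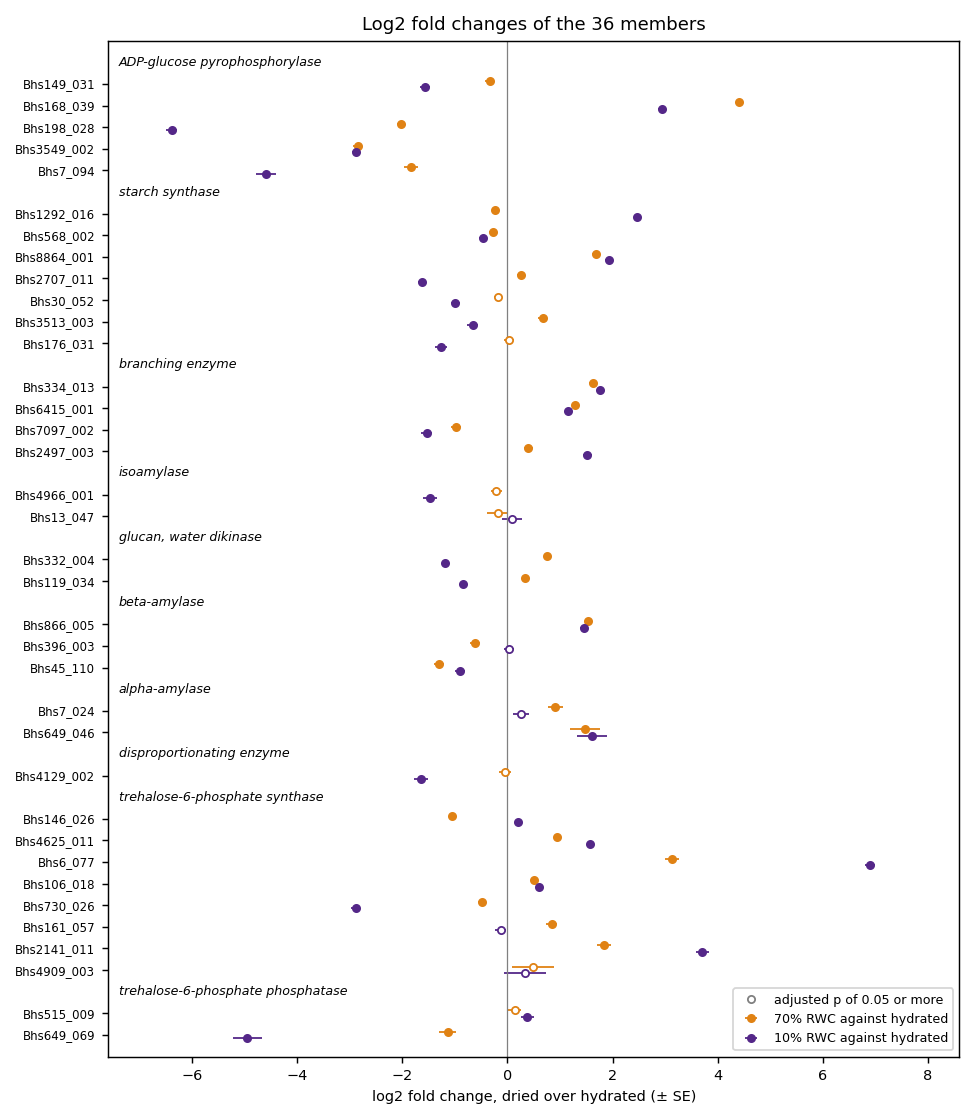
Log2 fold changes of the 36 genes against hydrated leaves (horizontal axis), grouped by role, with the comparisons of 70% and 10% RWC marked by colour, filled symbols for called changes and bars for the standard error. Genes of 1 role lie on both sides of 0, from -6.39 for an ADP-glucose pyrophosphorylase large subunit to 6.90 for a trehalose-6-phosphate synthase at 10% RWC.

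Relative to hydrated leaves, 11 genes of the set were higher in both dried states (24.7% of all genes) and 9 were lower in both (28.0%). Another 4 were higher at 70% and lower at 10% RWC (5.32%), and 2 were lower at 70% and higher at 10% RWC (4.20%). A further 5 were called at 10% but not at 70% RWC (21.6%). Of the 36 genes, 21 were called in all 3 comparisons (48.6%) and 2 in none (6.41%). Drying in steps, hydrated to 70% RWC and 70% to 10% RWC, 12 genes were called in the same direction at both steps (29.9%) and 12 in opposite directions (25.6%). The 2 comparisons against hydrated leaves share their hydrated libraries.

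For ADP-glucose pyrophosphorylase, the enzyme of the first committed step to starch, 1 gene was higher and 4 were lower than in hydrated leaves in both dried states. Beside these stand 34.6% and 35.9% of all genes at 70% RWC, and 42.4% and 41.5% at 10% RWC. Genes whose match names a large subunit went in both directions. The large subunit gene Bhs168_039V1.1 (scaffold 168, 237533 to 241125, plus strand) had 27.6, 24.3 and 27.9 CPM in hydrated leaves, 551, 577 and 567 at 70% RWC and 202, 205 and 203 at 10% RWC. It rose 21.2-fold at 70% RWC (log2 fold change 4.41 ± 0.07 SE, adjusted p = 2.84e-18, edgeR) and stood 7.65-fold above hydrated leaves at 10% RWC, with no overlap between any of the states. A second large subunit gene, Bhs198_028V1.1 (scaffold 198, 198524 to 201630, plus strand), had 513, 484 and 469 CPM in hydrated leaves, 117, 119 and 123 at 70% RWC and 6.92, 4.77 and 5.67 at 10% RWC. That gene fell by 2.03 on the log2 scale at 70% RWC and was 83.9-fold lower at 10% RWC than in hydrated leaves (adjusted p = 9.92e-19, edgeR), the largest decrease among the 36 genes in the comparisons made here.

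The remaining genes of this enzyme fell as well. Bhs149_031V1.1 (scaffold 149, 261292 to 264666, minus strand), for which the match names no subunit, had 588, 459.8 and 466 CPM in hydrated leaves, 431, 388 and 377 at 70% RWC and 187, 159 and 166 at 10% RWC. It was 1.27-fold lower at 70% RWC and 2.96-fold lower at 10% RWC than in hydrated leaves. The last genes match a beta subunit, and their match text does not say whether that is the large or the small one. Of these, Bhs3549_002V1.1 had 295, 267 and 278 CPM in hydrated leaves, 36.2, 43.6 and 36.7 at 70% RWC and 38.7, 37 and 38 at 10% RWC. Nearly its whole decrease was there at 70% RWC (-2.85 ± 0.08), and 10% and 70% RWC overlapped (-0.03 ± 0.09, adjusted p = 0.735, edgeR). The rarer beta subunit gene Bhs7_094V1.1 had 38.3, 34.5 and 36.8 CPM in hydrated leaves, 9.18, 9.22 and 12.2 at 70% RWC and 1.86, 0.982 and 1.62 at 10% RWC. It fell at each step and was 24.1-fold lower at 10% RWC than in hydrated leaves. Summed over its 5 genes, the enzyme took 0.138 ± 0.0143% of all CPM in hydrated leaves, 0.109 ± 0.00339% at 70% RWC and 0.0425 ± 0.00197% at 10% RWC (SD, n = 3). Per kilobase of coding length, Bhs168_039V1.1 made up 2.09% of the enzyme's summed level in hydrated leaves, 49.8% at 70% RWC and 49.5% at 10% RWC, and Bhs198_028V1.1 made up 39.7%, 10.9% and 1.45%.

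Among the starch synthases, granule-bound starch synthase 1, which makes the unbranched amylose inside the granule, had the highest level per kilobase of coding length in each state and rose late. Its gene Bhs1292_016V1.1 (scaffold 1292, 168710 to 172412, minus strand) had 1235, 1207 and 1185 CPM in hydrated leaves, 1074, 994 and 1032 at 70% RWC and 6894, 6583 and 6453 at 10% RWC. Levels at 70% RWC lay slightly below hydrated leaves (-0.23 ± 0.06, adjusted p = 0.00303, edgeR), a call that was lost with replicates 2 and 3 summed into 1 sample (adjusted p = 0.0743). The level at 10% RWC was 5.49-fold that of hydrated leaves (adjusted p = 3.76e-16, edgeR) and 6.43-fold that at 70% RWC.

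Synthases that act in the soluble phase mostly went the other way at the end of drying. Soluble starch synthase 1, Bhs2707_011V1.1, which extends short chains, had 114, 105 and 98.4 CPM in hydrated leaves, 134, 122 and 127 at 70% RWC and 37.8, 33.1 and 31.9 at 10% RWC. Its level lay slightly above hydrated leaves at 70% RWC (0.26 ± 0.08) and 3.09-fold below them at 10% RWC. With scaling by total counts alone its small difference at 70% RWC was no longer called (adjusted p = 0.0956, edgeR). Bhs3513_003V1.1, a match to starch synthase V, had 35, 32.6 and 35.6 CPM in hydrated leaves, 59.5, 48 and 56.1 at 70% RWC and 23, 21.3 and 21.1 at 10% RWC. It was likewise higher at 70% RWC (0.67 ± 0.09) and lower at 10% RWC (-0.66 ± 0.10) than in hydrated leaves. Starch synthase VI, Bhs176_031V1.1, had 34.2, 37.3 and 34.6 CPM in hydrated leaves, 37, 32.6 and 38.7 at 70% RWC and 13, 15.1 and 16.1 at 10% RWC. The values overlapped between 70% RWC and hydrated leaves and were 2.40-fold lower at 10% RWC than in hydrated leaves. For Bhs30_052V1.1, matched to granule-bound starch synthase 2, the values were 66, 68.8 and 66.8 CPM in hydrated leaves, 62.2, 56.9 and 58.8 at 70% RWC and 36.8, 29.3 and 35 at 10% RWC. The difference from hydrated leaves was not called at 70% RWC (-0.18 ± 0.08, adjusted p = 0.0644, edgeR) and was called at 10% RWC (-0.99 ± 0.09). At 70% RWC the libraries did not overlap, and the gene was called lower under 6 of 17 alternatives, such as a fit blocked on replicate number (-0.18, adjusted p = 0.0158) and scaling by total counts (-0.28, adjusted p = 0.00992, edgeR).

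Starch synthase IV and III are the remaining members. Starch synthase IV, which in Arabidopsis is needed to start granules, was the synthase that was higher in both dried states. Its gene Bhs8864_001V1.1 (scaffold 8864, 5829 to 17043, plus strand) had 43.8, 46.8 and 47.9 CPM in hydrated leaves, 143, 152 and 149 at 70% RWC and 186, 164 and 179 at 10% RWC. These levels were 3.20-fold and 3.82-fold hydrated leaves (adjusted p = 7.08e-13 and 5.11e-14, edgeR). Its further step between the dried states (0.25 ± 0.07) was not called without 70% RWC replicate 1 (adjusted p = 0.171). Starch synthase III, Bhs568_002V1.1, had 194, 169 and 174 CPM in hydrated leaves, 158, 140.2 and 146 at 70% RWC and 142, 123 and 122 at 10% RWC. Its decreases of -0.28 ± 0.08 and -0.47 ± 0.08 against hydrated leaves were called. Its dried states overlapped, and the call between them was lost under 4 alternatives, such as scaling by total counts (adjusted p = 0.221, edgeR). Of the 7 synthase genes, 3 were higher and 2 lower at 70% RWC (34.6% and 35.9% of all genes), and 2 were higher and 5 lower at 10% RWC (42.4% and 41.5%), against hydrated leaves. Granule-bound starch synthase 1 held 77.0 ± 0.280% of the synthases' summed level per kilobase in hydrated leaves, 70.2 ± 0.116% at 70% RWC and 95.9 ± 0.167% at 10% RWC (SD, n = 3). All 7 together took 0.173 ± 0.00780%, 0.154 ± 0.00854% and 0.714 ± 0.0309% of all CPM in these states.

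**Figure D2:**
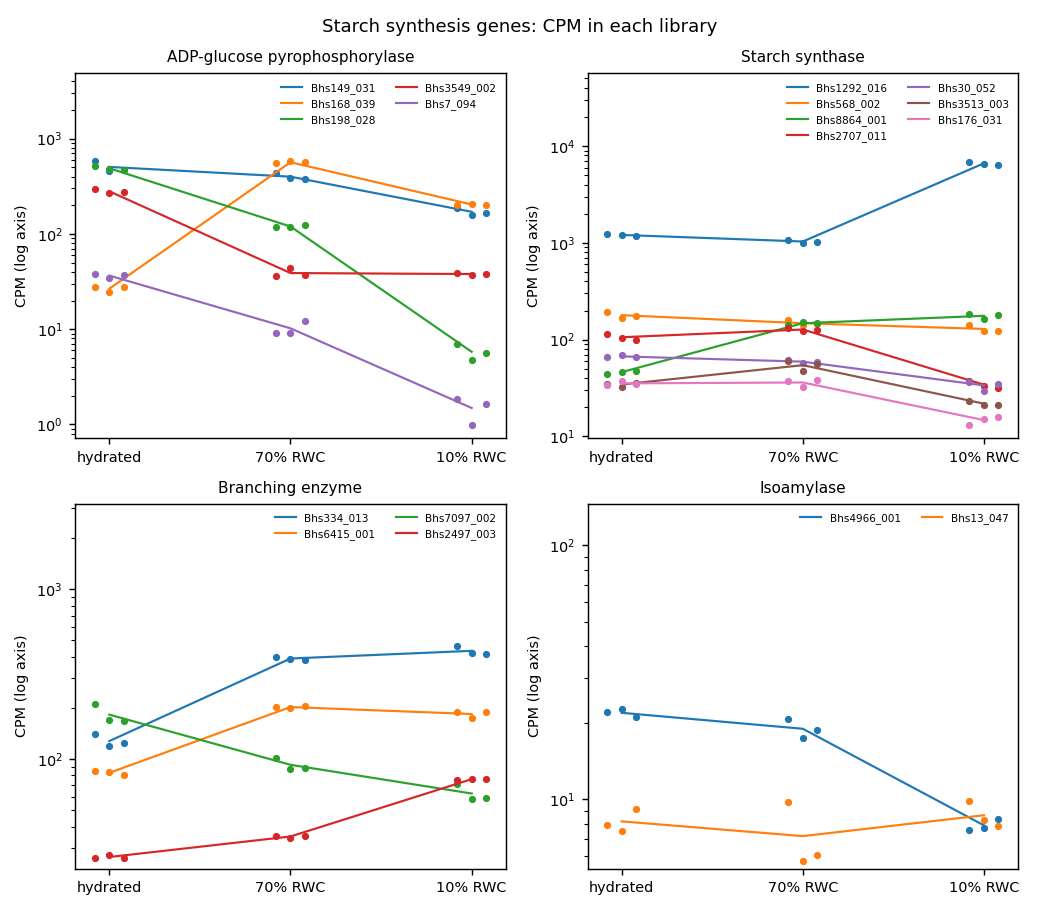
CPM in each library (points, log axis) and state means (lines) for the genes of starch synthesis, with a panel per enzyme, gene IDs without their ending V1.1, and the states in the order hydrated, 70% RWC and 10% RWC. Granule-bound starch synthase 1 reaches 6453 to 6894 CPM at 10% RWC, and the lines of the large subunit genes Bhs168_039V1.1 and Bhs198_028V1.1 cross between hydrated leaves and 70% RWC.

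Branching enzymes, which cut a glucan chain and join it to another as a side chain, rose in 3 of 4 genes in both dried states, where 24.7% of all genes did. A starch branching enzyme II, Bhs334_013V1.1 (scaffold 334, 81423 to 93837, minus strand), had 139.8, 119 and 124 CPM in hydrated leaves, 399, 389 and 386 at 70% RWC and 463, 422 and 418 at 10% RWC. It stood 3.06-fold above hydrated leaves at 70% RWC and 3.40-fold above them at 10% RWC (adjusted p = 1.36e-13, edgeR), and its dried states were not called apart (adjusted p = 0.051), although they were under 4 of 17 alternatives (adjusted p = 0.00213 to 0.023). Starch-branching enzyme I, Bhs6415_001V1.1, had 84.7, 83.6 and 80.4 CPM in hydrated leaves, 202, 200.4 and 205 at 70% RWC and 189, 175 and 188 at 10% RWC. The dried levels were 2.44-fold and 2.22-fold those of hydrated leaves. The slight decrease between its dried states (-0.14 ± 0.06, adjusted p = 0.0432, edgeR) was lost under 7 of 17 alternatives, with adjusted p up to 0.418. Bhs2497_003V1.1, a putative 1,4-alpha-glucan branching enzyme, had 26.2, 27.1 and 26 CPM in hydrated leaves, 35.3, 34.2 and 35.2 at 70% RWC and 75.6, 76 and 76.6 at 10% RWC. It rose by 0.40 ± 0.08 at 70% RWC against hydrated leaves and by 1.12 ± 0.07 at 10% against 70% RWC.

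The second gene matched to starch branching enzyme II, Bhs7097_002V1.1 (scaffold 7097, 8561 to 34054, minus strand), fell over the same states. It had 212, 169 and 167 CPM in hydrated leaves, 102, 87.8 and 87.9 at 70% RWC and 71, 57.9 and 58.9 at 10% RWC. The level was 1.98-fold lower at 70% RWC and 2.92-fold lower at 10% RWC than in hydrated leaves (adjusted p = 1.53e-09, edgeR). By level per kilobase, Bhs7097_002V1.1 was 41.3 ± 2.02% of the branching enzymes in hydrated leaves, 11.7 ± 0.770% at 70% RWC and 7.63 ± 0.512% at 10% RWC, and Bhs334_013V1.1 was 31.9 ± 0.668%, 55.0 ± 0.339% and 58.6 ± 0.920% (SD, n = 3).

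Isoamylases remove misplaced branches during granule growth. Isoamylase isoform 1, Bhs4966_001V1.1 (scaffold 4966, 6397 to 21267, plus strand), had 22, 22.7 and 21 CPM in hydrated leaves, 20.7, 17.4 and 18.7 at 70% RWC and 7.59, 7.71 and 8.38 at 10% RWC. Its level at 70% RWC was not called different from hydrated leaves (-0.21 ± 0.11, adjusted p = 0.105, edgeR), but the libraries did not overlap, and it was called lower with RLE scaling (-0.26, adjusted p = 0.0467) and with total counts (-0.31, adjusted p = 0.0242). At 10% RWC it was 2.77-fold lower than in hydrated leaves. Isoform 2, Bhs13_047V1.1, had 7.92, 7.52 and 9.12 CPM in hydrated leaves, 9.74, 5.71 and 6.04 at 70% RWC and 9.85, 8.27 and 7.83 at 10% RWC. Its libraries overlapped, with no call in any of the 3 comparisons (adjusted p = 0.429, 0.695 and 0.23, edgeR). In the comparisons with 70% RWC this rests on 70% RWC replicate 1, the highest of its state. Without that library the gene was called lower at 70% RWC than in hydrated leaves (-0.48, adjusted p = 0.0428) and higher at 10% than at 70% RWC (0.45, adjusted p = 0.0498, edgeR). At 10% RWC against hydrated leaves it was still not called (-0.03, adjusted p = 0.869, edgeR).

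**Figure D3:**
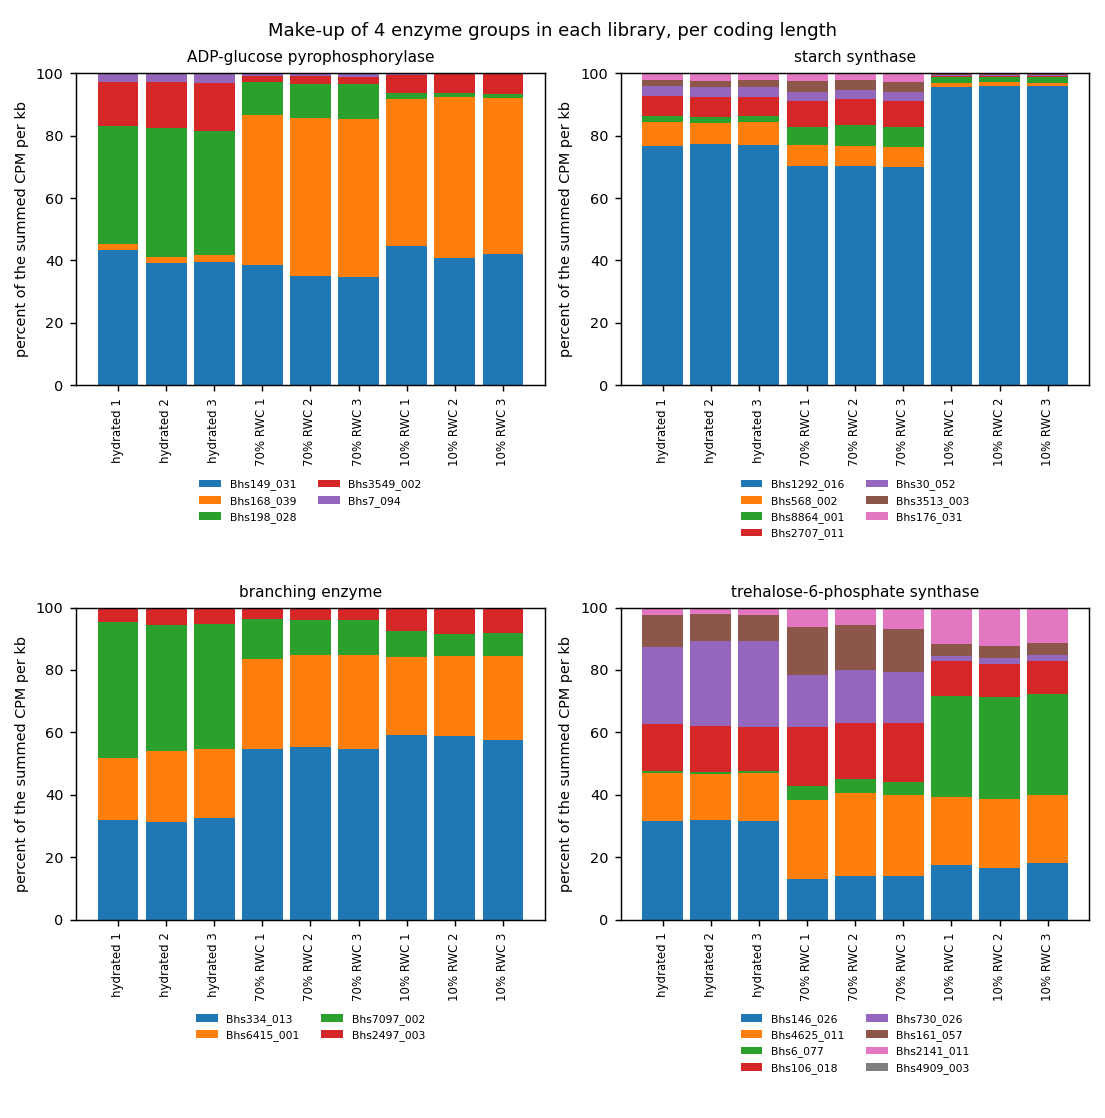
Share of each gene in the summed CPM per kilobase of coding length of its enzyme (vertical axis, percent), with a stacked bar for each library, in the order hydrated, 70% RWC and 10% RWC, and gene IDs without their ending V1.1. The gene with the largest share differs between hydrated leaves and the dried states for ADP-glucose pyrophosphorylase, the branching enzymes and trehalose-6-phosphate synthase, and granule-bound starch synthase 1 (Bhs1292_016V1.1) has the largest share of the synthases in each library.

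Both dikinases that open the granule for breakdown were higher at 70% RWC and lower at 10% RWC than in hydrated leaves. The gene matched to starch associated protein R1, another name of glucan, water dikinase, is Bhs332_004V1.1 (scaffold 332, 18543 to 28788, plus strand) and had 677, 648 and 635 CPM in hydrated leaves, 1144, 1087 and 1067 at 70% RWC and 302, 277 and 280.02 at 10% RWC. It rose 1.68-fold at 70% RWC (adjusted p = 4.98e-09, edgeR) and was 2.28-fold lower at 10% RWC than in hydrated leaves (adjusted p = 5.92e-12). Phosphoglucan, water dikinase, Bhs119_034V1.1 (scaffold 119, 250512 to 256118, plus strand), which adds phosphate to glucans already phosphorylated, had 239, 213 and 216 CPM in hydrated leaves, 289, 284 and 268 at 70% RWC and 128, 123 and 124 at 10% RWC. Its steps were smaller, 0.33 ± 0.06 at 70% RWC and -0.84 ± 0.06 at 10% RWC against hydrated leaves, and none of the states overlapped for either dikinase.

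Beta-amylases release maltose from chain ends, and 1 gene dominated the 3 of the set. The gene matched to beta-amylase 1, Bhs866_005V1.1 (scaffold 866, 95632 to 98275, plus strand), had 567, 613 and 593 CPM in hydrated leaves, 1619, 1742 and 1779 at 70% RWC and 1493, 1709 and 1628 at 10% RWC. It rose 2.90-fold at 70% RWC (adjusted p = 1.16e-12, edgeR) and stayed at 2.72-fold at 10% RWC, the dried states overlapping (-0.09 ± 0.07, adjusted p = 0.228). Without 70% RWC replicate 1 it was called lower at 10% than at 70% RWC (-0.24, adjusted p = 0.00519, edgeR). A second match to this enzyme, Bhs396_003V1.1, had 51.6, 53.6 and 57.8 CPM in hydrated leaves, 32.8, 33.7 and 39.8 at 70% RWC and 54.5, 57.4 and 54.3 at 10% RWC. It dipped at 70% RWC (-0.62 ± 0.09), and at 10% RWC it overlapped hydrated leaves. Bhs45_110V1.1, a match to beta-amylase 7, which in Arabidopsis is a nuclear protein with a DNA-binding domain, had 56.1, 46.4 and 49.6 CPM in hydrated leaves, 20.3, 22.2 and 19.4 at 70% RWC and 28.5, 25.8 and 27 at 10% RWC. This gene was 2.45-fold lower at 70% RWC and 1.87-fold lower at 10% RWC than in hydrated leaves, while its rise between the dried states (0.39 ± 0.11) was not called without 70% RWC replicate 1 (adjusted p = 0.0601, edgeR). Per kilobase Bhs866_005V1.1 made up 84.1 ± 0.889% of the 3 beta-amylases in hydrated leaves, 96.5 ± 0.111% at 70% RWC and 94.5 ± 0.339% at 10% RWC (SD, n = 3). These shares leave out 5 beta-amylases found by KEGG entry alone and described at the end. Of those, Bhs13122_002V1.1 had 229, 70.0 and 19.1 CPM per kilobase in these states, against 342, 992 and 932 for Bhs866_005V1.1.

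Alpha-amylases, which cut inside glucan chains, were rare. Bhs7_024V1.1 (scaffold 7, 136344 to 141744, minus strand) had 10.9, 8.94 and 9.41 CPM in hydrated leaves, 20.3, 16.4 and 18.4 at 70% RWC and 12.5, 10.5 and 12 at 10% RWC. It rose 1.88-fold at 70% RWC (adjusted p = 1.31e-05, edgeR), with no call at 10% RWC (adjusted p = 0.106). Bhs649_046V1.1 (scaffold 649, 336426 to 338368, plus strand) had 1.53, 1.56 and 1.03 CPM in hydrated leaves, 4.73, 2.93 and 3.98 at 70% RWC and 3.60, 4.63 and 4.59 at 10% RWC. From 205 reads in total, it was 2.79-fold higher at 70% RWC and 3.06-fold higher at 10% RWC than in hydrated leaves. The disproportionating enzyme Bhs4129_002V1.1 (scaffold 4129, 13076 to 27674, plus strand), a plastid glucanotransferase that joins short maltose chains, had 22.6, 22.6 and 25.4 CPM in hydrated leaves, 23.2, 24 and 21.1 at 70% RWC and 7.46, 6.87 and 8.24 at 10% RWC. It overlapped between 70% RWC and hydrated leaves (-0.05 ± 0.11, adjusted p = 0.719, edgeR) and was 3.12-fold lower at 10% RWC than in hydrated leaves. Over the 8 breakdown genes 5 were higher and 2 lower at 70% RWC (34.6% and 35.9% of all genes), and 2 were higher and 4 lower at 10% RWC (42.4% and 41.5%), against hydrated leaves.

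**Figure D4:**
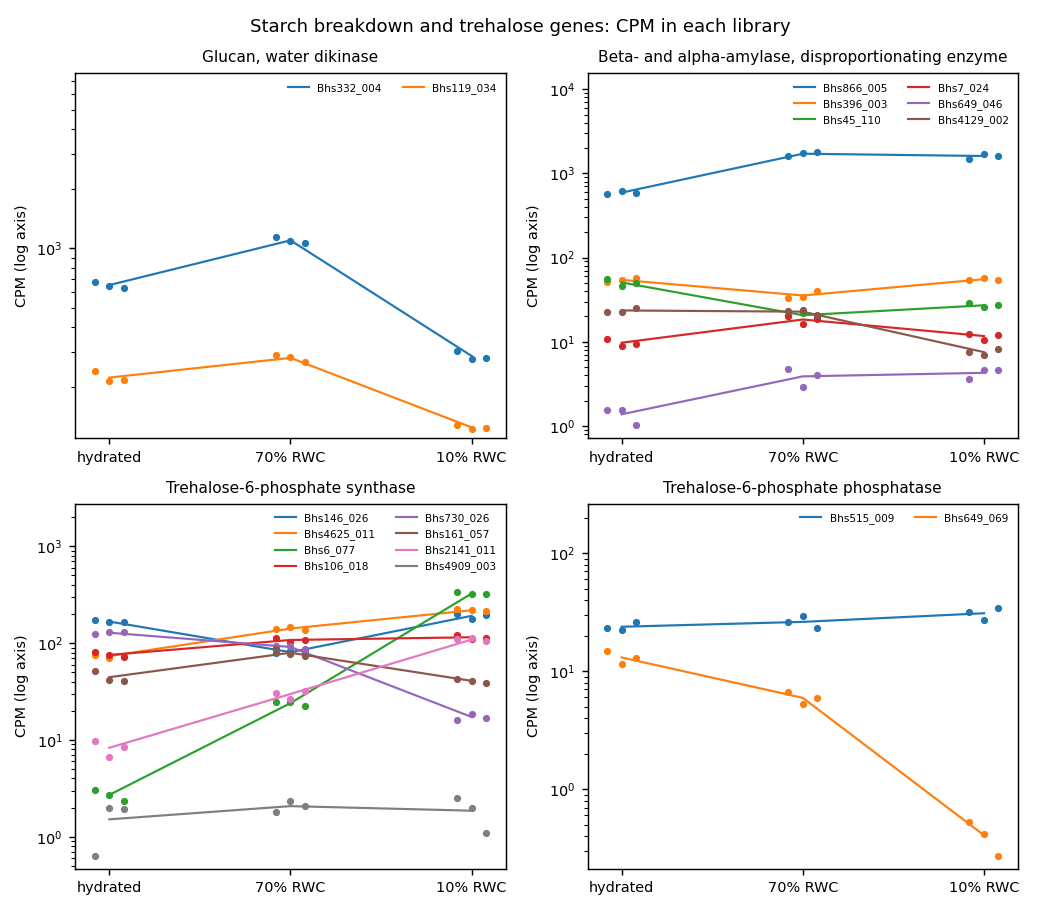
CPM in each library (points, log axis) and state means (lines) for the dikinases, the amylases with the disproportionating enzyme, and the trehalose-6-phosphate synthases and phosphatases, with gene IDs without their ending V1.1. Both dikinases peak at 70% RWC, and Bhs6_077V1.1 is the second lowest synthase in hydrated leaves and the highest at 10% RWC.

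Trehalose-6-phosphate synthase joins glucose 6-phosphate to UDP-glucose. Which of the 8 genes matched to this name make an active synthase was not tested. Of the 8, 5 were higher and 2 lower at 70% RWC than in hydrated leaves (34.6% and 35.9% of all genes). At 10% RWC 5 were higher and 1 lower than in hydrated leaves (42.4% and 41.5%). The steepest was Bhs6_077V1.1 (scaffold 6, 583282 to 585971, minus strand), with 3.07, 2.70 and 2.35 CPM in hydrated leaves, 24.9, 24.4 and 22.7 at 70% RWC and 337, 322 and 318 at 10% RWC. It rose 8.78-fold at 70% RWC and stood 119-fold above hydrated leaves at 10% RWC (log2 fold change 6.90 ± 0.10 SE, adjusted p = 7.16e-19, edgeR), the largest increase among the 36 genes. Bhs2141_011V1.1, which shares its closest KEGG entry with Bhs6_077V1.1, had 9.83, 6.67 and 8.38 CPM in hydrated leaves, 30.5, 26.6 and 32.4 at 70% RWC and 110.3, 112 and 105 at 10% RWC. It rose at both steps and reached 13-fold the hydrated level at 10% RWC. Bhs4625_011V1.1 (scaffold 4625, 163456 to 166459, minus strand) had 75.7, 70.8 and 73.7 CPM in hydrated leaves, 141, 146 and 138 at 70% RWC and 224, 218 and 214 at 10% RWC. This gene also rose at each step, 1.93-fold and 2.98-fold over hydrated leaves.

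The 8 genes form 4 pairs that share their closest KEGG entry, and within a pair reads of identical stretches were not counted, since counts are of unique reads. Bhs106_018V1.1, paired with Bhs4625_011V1.1, had 80.1, 75.2 and 71.3 CPM in hydrated leaves, 114, 103 and 106 at 70% RWC and 122, 109.9 and 113 at 10% RWC. It was higher than in hydrated leaves at 70% RWC (0.51 ± 0.07) and at 10% RWC (0.61 ± 0.07), with overlapping dried states. Bhs730_026V1.1, a match to trehalose-phosphate synthase 5, had 124, 129 and 131 CPM in hydrated leaves, 93.5, 94 and 86.3 at 70% RWC and 16.2, 18.7 and 16.9 at 10% RWC. It was the synthase that fell in both dried states and was 7.42-fold lower at 10% RWC than in hydrated leaves (adjusted p = 1.11e-15, edgeR). Its partner Bhs161_057V1.1 had 51.6, 41.6 and 40.3 CPM in hydrated leaves, 86.9, 78.2 and 73.6 at 70% RWC and 42.5, 40.7 and 39.2 at 10% RWC. That gene rose at 70% RWC (0.84 ± 0.10) and overlapped hydrated leaves at 10% RWC (adjusted p = 0.241, edgeR), where 3 of 17 alternatives called it lower (adjusted p = 0.0266 to 0.0373).

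The synthase with the highest level per kilobase in hydrated leaves, Bhs146_026V1.1 (scaffold 146, 217178 to 225341, plus strand), dipped at 70% RWC. It had 173, 165 and 164 CPM in hydrated leaves, 79.3, 82.4 and 80.1 at 70% RWC and 199.9, 179 and 196 at 10% RWC. Its level was 2.07-fold lower at 70% RWC than in hydrated leaves and 2.38-fold higher at 10% than at 70% RWC (adjusted p = 9.86e-12, edgeR). Its small excess at 10% RWC over hydrated leaves (0.20 ± 0.06, adjusted p = 0.00733) was lost under 5 alternatives, with adjusted p of 0.104 to 0.291. Bhs4909_003V1.1, matched to trehalose-phosphate synthase 1 and paired with Bhs146_026V1.1, was near the floor with 0.639, 1.99 and 1.91 CPM in hydrated leaves, 1.81, 2.34 and 2.06 at 70% RWC and 2.53, 1.96 and 1.08 at 10% RWC. It was called in no comparison. Among the synthases per kilobase, Bhs6_077V1.1 held 0.561 ± 0.0612% in hydrated leaves, 4.42 ± 0.110% at 70% RWC and 32.5 ± 0.176% at 10% RWC, while Bhs730_026V1.1 held 26.5 ± 1.48%, 16.7 ± 0.476% and 1.72 ± 0.161% (SD, n = 3). The 8 genes together took 0.0516 ± 0.00256%, 0.0534 ± 0.00244% and 0.103 ± 0.00397% of all CPM in these states.

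Trehalose-6-phosphate phosphatase removes the phosphate to leave trehalose. Bhs515_009V1.1 (scaffold 515, 165325 to 167625, minus strand) had 23.2, 22.3 and 25.9 CPM in hydrated leaves, 26, 29.1 and 23.4 at 70% RWC and 31.6, 26.9 and 34.4 at 10% RWC. It overlapped between 70% RWC and hydrated leaves and was 1.30-fold higher at 10% RWC than in hydrated leaves (adjusted p = 0.00555, edgeR), which DESeq2 did not call (adjusted p = 0.0542). Bhs649_069V1.1 (scaffold 649, 464982 to 466911, minus strand) had 14.8, 11.5 and 12.9 CPM in hydrated leaves, 6.68, 5.27 and 5.89 at 70% RWC and 0.533, 0.421 and 0.270 at 10% RWC. Its values at 10% RWC rest on 4, 3 and 2 reads. Its decrease was 2.20-fold at 70% RWC and 30.9-fold at 10% RWC relative to hydrated leaves (adjusted p = 1.39e-11, edgeR).

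Ranked by level per kilobase of coding length, granule-bound starch synthase 1 was first in hydrated leaves with 664 CPM per kilobase, ahead of beta-amylase 1 with 342, Bhs149_031V1.1 with 322 and Bhs198_028V1.1 with 313. On this scale the libraries of Bhs149_031V1.1 overlap those of both neighbours in the order. At 70% RWC beta-amylase 1 led with 992 CPM per kilobase, followed by granule-bound starch synthase 1 with 567, Bhs168_039V1.1 with 351 and the glucan, water dikinase with 257, whose libraries overlap those of Bhs149_031V1.1 with 255. At 10% RWC granule-bound starch synthase 1 was again first with 3648, and beta-amylase 1, the branching enzyme Bhs334_013V1.1 and the synthase Bhs6_077V1.1 followed with 932, 187 and 128 CPM per kilobase. The libraries of Bhs6_077V1.1 there overlap those of Bhs168_039V1.1, with 126. All 36 genes together took 0.578 ± 0.0349% of all CPM in hydrated leaves, 0.698 ± 0.0195% at 70% RWC and 1.16 ± 0.0345% at 10% RWC (SD, n = 3). Granule-bound starch synthase 1 made most of this difference at 10% RWC, since the other 35 genes took 0.453 ± 0.0299%, 0.599 ± 0.0142% and 0.484 ± 0.00639% in these states.

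Features outside the selection words were shared by some genes. A plastid term of the Gene Ontology was attached to 18 of 36. Of the set, 4 genes share a scaffold with another, scaffold 7 carrying the beta subunit gene Bhs7_094V1.1 and the alpha-amylase Bhs7_024V1.1, and scaffold 649 carrying the phosphatase Bhs649_069V1.1 and the alpha-amylase Bhs649_046V1.1. None of the 36 gene models overlapped another gene model. Trehalase, Bhs396_004V1.1, lies next to the beta-amylase Bhs396_003V1.1 in gene numbering on scaffold 396, at 40682 to 44538 on the plus strand, against 33761 to 37133 on the minus strand for the beta-amylase.

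Genes around the pathway were read in the same fit, from a list of search words for transport, hexose phosphate and SnRK1 genes, of which 25 of 27 were tested. At 70% RWC against hydrated leaves 11 were higher, 9 lower and 5 not called, where 34.6% of all genes were higher and 35.9% lower. At 10% RWC against hydrated leaves 11 were higher and 14 lower (42.4% and 41.5% of all genes). At 10% against 70% RWC 4 were higher, 18 lower and 3 not called (37.1% of all genes higher and 39.6% lower). Their median log2 fold changes were 0.10, -0.51 and -0.97 in these comparisons, beside -0.01, 0.01 and -0.05 for all genes.

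Genes that carry or convert hexose phosphate moved in different directions. Bhs13_005V1.1, matched to glucose-6-phosphate/phosphate translocator 2, an importer of hexose phosphate into plastids, had 175, 182 and 187 CPM in hydrated leaves, 118, 124 and 117 at 70% RWC and 537, 502 and 515 at 10% RWC. It was lower at 70% RWC (-0.60 ± 0.06) and higher at 10% RWC (1.52 ± 0.06, adjusted p = 1.21e-13, edgeR) than in hydrated leaves. The other translocator tested, Bhs3405_003V1.1, matched to translocator 1, had 46.4, 58.3 and 65.7 CPM in hydrated leaves, 59.95, 59.1 and 62 at 70% RWC and 25.6, 27.9 and 30.7 at 10% RWC. It was not called at 70% RWC (0.09 ± 0.11) and was lower at 10% RWC (-1.01 ± 0.11, adjusted p = 2.51e-07, edgeR) than in hydrated leaves. Plastid phosphoglucomutase, Bhs1688_005V1.1, which makes the glucose 1-phosphate used by ADP-glucose pyrophosphorylase, had 220.1, 213 and 208 CPM in hydrated leaves, 168, 159 and 149.9 at 70% RWC and 84.8, 79.7 and 79.7 at 10% RWC. It fell at each step, 2.62-fold in all. Of the 6 phosphoglucomutases tested, 2 were higher and 4 lower in each dried state than in hydrated leaves. Beside these stand 34.6% and 35.9% of all genes at 70% RWC, and 42.4% and 41.5% at 10% RWC. Cytosolic glucose-6-phosphate isomerase, Bhs7_104V1.1, had 159, 144 and 144 CPM in hydrated leaves, 220.5, 195 and 201 at 70% RWC and 98.5, 96.9 and 93.7 at 10% RWC. It was above hydrated leaves at 70% RWC (0.46 ± 0.07) and below them at 10% RWC (-0.63 ± 0.07). The other isomerase tested, Bhs1245_003V1.1, was below hydrated leaves in both dried states (-0.97 ± 0.06 and -1.70 ± 0.07).

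On the side of release, a probable plastidic glucose transporter, Bhs32_153V1.1, had 31.7, 29.9 and 30.7 CPM in hydrated leaves, 339.6, 346 and 317 at 70% RWC and 71.2, 69.8 and 72.3 at 10% RWC. It stood 10.8-fold above hydrated leaves at 70% RWC (adjusted p = 2.34e-17, edgeR) and 2.31-fold at 10% RWC. The maltose exporter maltose excess protein 1, Bhs1764_011V1.1, had 38.4, 44.4 and 45.6 CPM in hydrated leaves, 35.2, 44.8 and 44.9 at 70% RWC and 26.6, 32 and 31.7 at 10% RWC. At 70% RWC it overlapped hydrated leaves, and it was 1.42-fold lower at 10% RWC than in hydrated leaves. Hexokinase 3, Bhs22_025V1.1, which phosphorylates free glucose, had 91.8, 87.7 and 83.7 CPM in hydrated leaves, 192, 180.2 and 171 at 70% RWC and 178, 178 and 173 at 10% RWC. The dried states overlapped, and the level at 10% RWC was 2.01-fold that of hydrated leaves. The other hexokinases tested both match hexokinase 6. Bhs257_036V1.1 was lower than in hydrated leaves in both dried states (-1.61 ± 0.21 and -2.19 ± 0.23). Bhs2229_003V1.1 was not called at 70% RWC (-0.07 ± 0.21) and was higher at 10% RWC (1.14 ± 0.18) than in hydrated leaves. Pullulanase 1, the limit dextrinase Bhs18_010V1.1 that removes branches in breakdown, had 28.2, 29.1 and 32.4 CPM in hydrated leaves, 31.9, 34 and 32.8 at 70% RWC and 13.7, 16.3 and 16.3 at 10% RWC. Against hydrated leaves it was called lower at 10% RWC (-0.95 ± 0.11) and not called at 70% RWC (adjusted p = 0.218, edgeR). An alpha-glucosidase, Bhs433_003V1.1, had 408, 415 and 404 CPM in hydrated leaves, 109, 109 and 114 at 70% RWC and 18.1, 15.8 and 14.9 at 10% RWC. It was 25.1-fold lower at 10% RWC than in hydrated leaves. The other alpha-glucosidases tested, Bhs4523_007V1.1, Bhs358_014V1.1 and Bhs211_007V1.1, were higher at 70% RWC (0.48 ± 0.06, 0.67 ± 0.07 and 0.19 ± 0.08). At 10% RWC Bhs4523_007V1.1 was higher (0.27 ± 0.06), and Bhs358_014V1.1 (-0.43 ± 0.07) and Bhs211_007V1.1 (-2.15 ± 0.09) were lower than in hydrated leaves.

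Trehalase, which splits trehalose into glucose, changed little. Its gene Bhs396_004V1.1 had 66.4, 64.4 and 60.3 CPM in hydrated leaves, 96.8, 85.2 and 89.3 at 70% RWC and 76.7, 71.9 and 70.1 at 10% RWC. The log2 fold changes were 0.50 ± 0.07 at 70% RWC and 0.19 ± 0.08 at 10% RWC (adjusted p = 1.02e-05 and 0.0245, edgeR). Of the SnRK1 genes, the regulatory gamma subunit Bhs1632_008V1.1 had 10.1, 9.37 and 10.4 CPM in hydrated leaves, 295, 308 and 306 at 70% RWC and 94.4, 112 and 103 at 10% RWC. It stood 30.4-fold above hydrated leaves at 70% RWC and 10.3-fold at 10% RWC. A second gene of this family, Bhs13406_001V1.1, matched to the gamma-like protein PV42a and picked after its values were seen, had 1.02, 0.568 and 0.882 CPM in hydrated leaves, 209, 206 and 222 at 70% RWC and 152, 169 and 168 at 10% RWC. Its log2 fold change was 7.97 ± 0.13 at 70% RWC (adjusted p = 2.81e-18, edgeR) and 7.59 ± 0.13 at 10% RWC. The catalytic subunit match Bhs32_059V1.1, likewise picked afterwards, had 11.4, 7.52 and 7.06 CPM in hydrated leaves, 3.62, 2.93 and 2.65 at 70% RWC and 0.533, 0.421 and 0.405 at 10% RWC. It fell at each step.

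**Figure D5:**
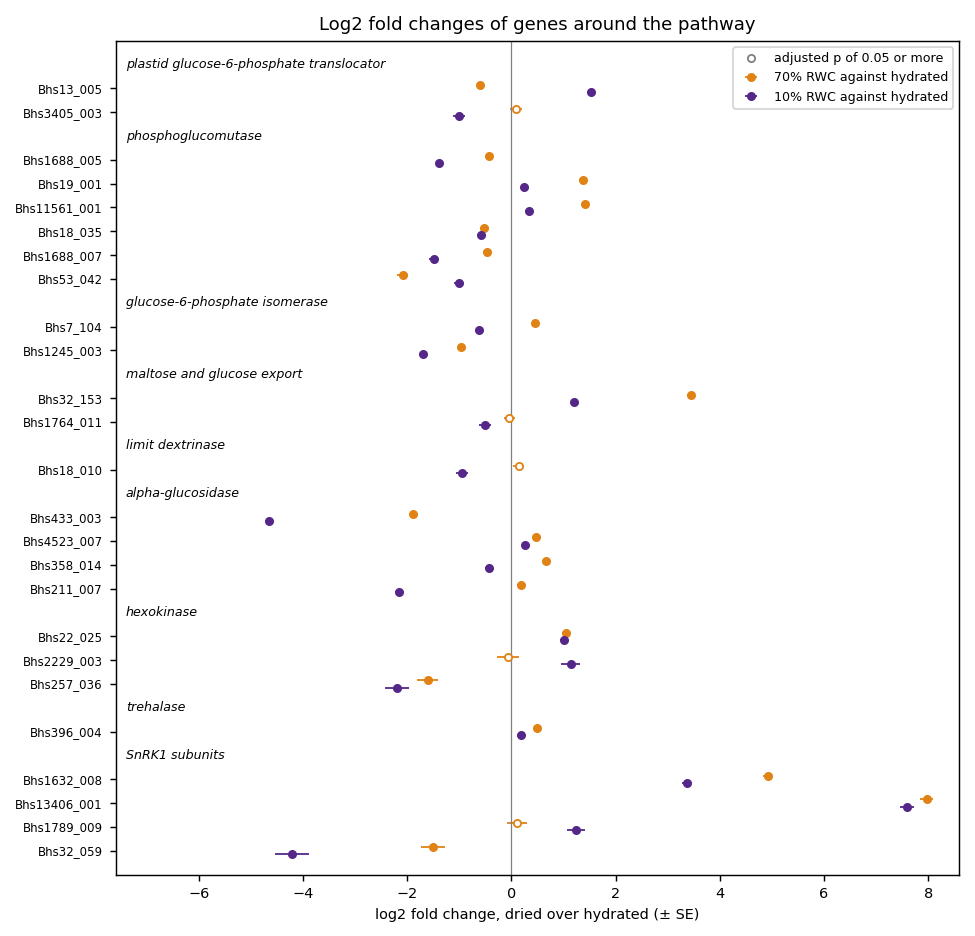
Log2 fold changes against hydrated leaves (horizontal axis) of the tested genes around the pathway, grouped by list, with colours for 70% and 10% RWC, filled symbols for called changes and bars for the standard error. The SnRK1 gamma-like gene Bhs13406_001V1.1 lies farthest right at 7.97 and 7.59, and the alpha-glucosidase Bhs433_003V1.1 farthest left at -4.65 for 10% RWC.

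In the authors' deposited table, which compares each dried state with hydrated leaves, all 36 genes are listed and 29 are called at 70% RWC and 29 at 10% RWC. Each of those calls in the authors' deposited table has the same direction here, and Bhs146_026V1.1 and Bhs515_009V1.1 are called at 10% RWC here but not there. The log2 fold changes of the authors' deposited table lie within 0.04 of those given here at 70% RWC. At 10% RWC, the values of the authors' deposited table minus those here were -0.18 to -0.13 for 35 of the 36 genes, with a median of -0.15. The genes called here alone have 0.04 and 0.23 in the authors' deposited table, against 0.20 and 0.38 here. The remaining gene is Bhs649_069V1.1, at -16.61 in the authors' deposited table and -4.95 here.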

How the data were processed

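Leaf RNA of 9 libraries, 3 in each of 3 water states, was read from gene tables. Samples titled HD were taken as hydrated leaves. Per the file headers, the authors deposited unique read counts per gene, which sum to the total in the header in 9 of 9 files. Genes without reads are not listed in a library's table and were set to 0. The authors' deposited table gives, per the file headers, a log2 fold change and an adjusted p-value of each dried state against hydrated leaves. Aligner, counting tool, assembly version, strand use and read filters are not given in the sources used here. Counting unique reads drops those shared by near-identical copies, so members of 1 family are uncertain to that extent, and without a stated strand antisense reads cannot be told apart. Gene models hold coding length alone (100% are multiples of 3, median 945 bases).

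edgeR 4.0.16 (R 4.3.3) was used with TMM scaling and filterByExpr, which kept 14585 genes with at least 99.8% of the reads of each library. Its robust quasi-likelihood model had a mean for each of the 3 states, took in the 9 libraries together and held no replicate term. P-values were adjusted by Benjamini-Hochberg over all genes tested. The standard error is the log2 fold change divided by the square root of F. CPM are TMM-scaled, and levels of different genes are compared as CPM per kilobase of coding length. The scripts were tested on simulated data. Alternatives were RLE and total-count scaling, no filter, DESeq2 1.42.0, the replicate number as a block, the compared states alone, each library left out, and replicates 2 and 3 alone or summed.

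Roles were assigned by words of the best match, and the match to starch associated protein R1 was put with the dikinases after the tables were read. For naming, a rule took all genes of roles with up to 3 members, and otherwise the 2 with the highest mean CPM. For each comparison it added the called gene with the largest absolute log2 fold change among those with at least 5 CPM in the higher state. This gave 24 of the 36 genes and 9 genes around the pathway. The other 12 are named because every gene is accounted for. All members and lists were chosen with earlier results of these data known.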

Additional observations from a re-analysis of the deposited data

Results flagged for a closer look

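Against hydrated leaves, 6 of the 36 genes were called in opposite directions in the 2 dried states. Of all genes tested, 5.32% were called higher at 70% and lower at 10% RWC, and 4.20% lower at 70% and higher at 10% RWC. In each of the 6 genes the difference between those states was tested as 10% against 70% RWC in edgeR's fit. Granule-bound starch synthase 1 (Bhs1292_016V1.1) was lower at 70% and higher at 10% RWC, and its log2 fold change of 10% against 70% RWC was 2.68 ± 0.06 (SE, adjusted p = 5.53e-16, edgeR). Its call at 70% RWC was lost with replicates 2 and 3 summed. The trehalose-6-phosphate synthase Bhs146_026V1.1 took the same course, with 1.25 ± 0.06 (adjusted p = 9.86e-12), although its excess over hydrated leaves at 10% RWC depended on the processing. The opposite course, higher at 70% and lower at 10% RWC than in hydrated leaves, was that of the glucan, water dikinase Bhs332_004V1.1 with -1.94 ± 0.06 (adjusted p = 2.06e-14) and of phosphoglucan, water dikinase Bhs119_034V1.1 with -1.17 ± 0.06 (adjusted p = 2.57e-11). It was also that of soluble starch synthase 1 (Bhs2707_011V1.1) with -1.89 ± 0.08 (adjusted p = 1.15e-12) and of the starch synthase V match Bhs3513_003V1.1 with -1.32 ± 0.10 (adjusted p = 1.48e-09, edgeR). For Bhs2707_011V1.1 the call at 70% RWC was lost with scaling by total counts. In all 6 genes the libraries of 1 dried state lay above all hydrated libraries and those of the other below them. The dried states could therefore not overlap, and their difference follows from how these genes were chosen. Its p-values add no separate support.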

How the results depend on the processing

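Over 17 alternatives, 80 of the 88 called gene comparisons of the set kept their call and direction in each, and none of the 88 reversed. Of the 20 comparisons not called, 8 were called under at least 1 alternative and 12 under none. These 8 were Bhs30_052V1.1, Bhs4966_001V1.1 and Bhs13_047V1.1 at 70% RWC and Bhs161_057V1.1 at 10% RWC against hydrated leaves, and Bhs334_013V1.1, Bhs866_005V1.1, Bhs515_009V1.1 (adjusted p = 0.0193 to 0.0347 in 4 alternatives, edgeR) and Bhs13_047V1.1 at 10% against 70% RWC. Leaving out 1 library at a time gave 17 genes higher and 12 to 13 lower at 70% RWC against hydrated leaves, 13 to 14 higher and 17 to 18 lower at 10% RWC against hydrated leaves, and 8 to 10 higher and 17 to 20 lower at 10% against 70% RWC. Over all alternatives these counts ran over 16 to 17, 11 to 14, 12 to 14, 17 to 18, 8 to 11 and 17 to 20. Same-numbered libraries correlated in their deviations from the state means at r = 0.0694 to 0.2929 over 9 pairs (0.2385 to 0.2929 for number 1, 0.0694 to 0.1291 for numbers 2 and 3) and differently numbered ones at -0.2174 to 0.1406, so the numbers were not taken to pair samples, although between hydrated leaves and 70% RWC alone the 3 pairs had 0.1015 to 0.2929. With the replicate number as a block, 17 genes were higher and 13 lower at 70% RWC, 14 and 17 at 10% RWC, and 11 and 20 at 10% against 70% RWC, with 4 of the 8 gained calls among them. Scaling by total counts moved the median of all genes by -0.10 at 70% RWC against hydrated leaves.

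Reversals were found only among comparisons that were not called, and the cause was not tested. At 70% RWC against hydrated leaves, Bhs176_031V1.1 was at -0.02 with RLE scaling, -0.07 with total counts, -0.05 with no filter, -0.01 with DESeq2 and -0.0001 with replicates 2 and 3 alone, and at -0.01 to 0.11 with 1 library left out. Bhs4129_002V1.1 ran over -0.08 to 0.01 with 1 library left out. At 10% RWC against hydrated leaves, Bhs13_047V1.1 was at -0.02 with no filter, -0.03 with the compared states alone and -0.04 with replicates 2 and 3 alone (-0.03 to 0.16 with 1 library left out). Bhs396_003V1.1 was at -0.06 with RLE scaling, -0.07 with no filter, -0.05 with DESeq2 and -0.09 with the compared states alone (-0.09 to 0.07). Bhs4909_003V1.1 was at -0.36 with replicates 2 and 3 alone (-0.07 to 0.60), and at -0.44 to 0.12 for 10% against 70% RWC. In that last comparison Bhs3549_002V1.1 was at 0.04 with total counts and 0.003 with replicates 2 and 3 summed (-0.20 to 0.05), Bhs649_046V1.1 ran over -0.04 to 0.24, Bhs22_025V1.1 was at 0.04 with total counts (-0.11 to -0.02), and Bhs4286_001V1.1 was at 0.07 with total counts and 0.01 with replicates 2 and 3 summed (-0.16 to 0.02).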

Other observations

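A further 11 genes had a KEGG entry of the same enzymes but a best match whose text held none of the selection words, and 10 of these were tested. Some of their matches name an enzyme in other words, such as 4-alpha-glucanotransferase DPE2. Taken from the annotation after the tables were read, these 11 genes are no part of the 36. Against hydrated leaves 4 were higher, 5 lower and 1 not called at 70% RWC, and 2 were higher and 8 lower at 10% RWC, where 34.6% of all genes were higher and 35.9% lower at 70% RWC, and 42.4% and 41.5% at 10% RWC.

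The most abundant beta-amylase among them, Bhs13122_002V1.1 (scaffold 13122, 4795 to 7661, minus strand), had 439.9, 351 and 344 CPM in hydrated leaves, 123, 114 and 109 at 70% RWC and 32.9, 32.5 and 29 at 10% RWC. It was 3.28-fold lower at 70% RWC and 12-fold lower at 10% RWC than in hydrated leaves (adjusted p = 4.09e-15, edgeR), where the beta-amylase 1 match Bhs866_005V1.1 was higher in both dried states. All 5 beta-amylases of this list were lower at 10% RWC than in hydrated leaves, beside 41.5% of all genes. Another of them, Bhs5755_002V1.1, had 11.4, 10.6 and 8.24 CPM in hydrated leaves, 0.556, 0.585 and 1.47 at 70% RWC and 3.99, 3.23 and 2.84 at 10% RWC, lowest at 70% RWC.

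A trehalose-6-phosphate phosphatase, Bhs9987_001V1.1 (scaffold 9987, 53807 to 55693, plus strand), rose with drying. It had 5.75, 7.24 and 5.44 CPM in hydrated leaves, 15.7, 12.7 and 11.5 at 70% RWC and 132, 114 and 112 at 10% RWC. It stood 2.17-fold above hydrated leaves at 70% RWC and 19.4-fold at 10% RWC (log2 fold change 4.28 ± 0.13 SE, adjusted p = 2.77e-15, edgeR). Per kilobase of coding length it stood at 116 CPM at 10% RWC, where Bhs515_009V1.1 stood at 25.4. A second phosphatase of the list, Bhs2576_005V1.1, had 14.9, 12.6 and 15.4 CPM in hydrated leaves, 19.9, 19.2 and 18.6 at 70% RWC and 6.66, 7.29 and 5.13 at 10% RWC. It was above hydrated leaves at 70% RWC (0.42 ± 0.13) and below them at 10% RWC (-1.17 ± 0.15).

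The trehalose-6-phosphate synthase Bhs3546_007V1.1 had 47.4, 47.1 and 45.4 CPM in hydrated leaves, 116, 108 and 99.3 at 70% RWC and 165, 147 and 139.9 at 10% RWC. It rose at both steps and was 3.23-fold higher at 10% RWC than in hydrated leaves. DPE2, Bhs4924_001V1.1, a glucanotransferase that uses the maltose exported from the plastid at night, had 152, 161 and 158 CPM in hydrated leaves, 203, 222 and 216 at 70% RWC and 73.5, 70.1 and 62.7 at 10% RWC. Like both dikinases, it was called higher at 70% RWC (0.44 ± 0.07) and lower at 10% RWC (-1.19 ± 0.07) than in hydrated leaves. A glucan phosphorylase, Bhs4286_001V1.1, which releases glucose 1-phosphate from chain ends, had 389, 357 and 373 CPM in hydrated leaves, 221, 234 and 246 at 70% RWC and 227, 231 and 239 at 10% RWC. It was 1.60-fold lower at 70% RWC and 1.61-fold lower at 10% RWC than in hydrated leaves, with overlapping dried states.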
